A study of Homo sapiens with 12 samples.

Results

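The genes described are 40 autophagy and lysosome genes, chosen by symbol from 58302 genes in the deposited table: 18 genes of the autophagy machinery, 3 transcription factors of the MiT/TFE family and 19 lysosomal genes. All 40 symbols were found, and 39 of the 40 passed the filter on low counts. Messenger RNA was sequenced from lymphoma cell lines in 4 groups of 3 libraries: OCI-LY3 with selinexor, OCI-LY3 untreated, SU-DHL6 with selinexor and SU-DHL6 untreated. Both lines come from diffuse large B-cell lymphoma, OCI-LY3 being labelled as the activated B-cell type and SU-DHL6 as the germinal centre B-cell type, and every library carries the genotype label WT. Selinexor blocks XPO1, the carrier that exports many proteins from the nucleus, and untreated cultures were kept alongside without it. Doses of 300 and 100 nM and exposures of 24 and 48 h appear in the protocols, but no label ties either to a library or a line, so line, dose and time cannot be told apart in any comparison of the lines. Each line stands for 1 lymphoma, and the design text calls the triplicates biological without saying what separated them, so p-values measure the spread between these libraries.

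Macroautophagy wraps cytoplasm in a double membrane that fuses with the lysosome, where acid hydrolases break the content down. The ULK1 kinase complex starts the process, a lipid kinase complex around Beclin 1 marks the membrane, and ubiquitin-like conjugation enzymes attach proteins of the ATG8 family (the LC3 and GABARAP proteins) to it. TFEB, TFE3 and MITF switch on many of these genes through an E-box called the CLEAR motif. The kinase mTORC1 keeps these factors in the cytoplasm by phosphorylation, and they leave the nucleus through XPO1. B cells also use lysosomal proteases to cut antigen and the invariant chain of MHC class II.

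The libraries held 14210200 to 16405842 counts, and log CPM (the count of a gene relative to its library's total, scaled by TMM factors) correlated between replicates at 0.981 to 0.986. Library 1 of untreated SU-DHL6 and library 3 of treated OCI-LY3 stood apart from their replicates on the fourth principal component (41.45 against -17.46 and -16.18, and 25.02 against -12.58 and -8.29). XPO1, the target of the drug, had 355 ± 24.5 CPM in treated and 179 ± 7.77 CPM in untreated OCI-LY3, and 520 ± 76.6 CPM in treated and 153 ± 23.5 CPM in untreated SU-DHL6 (mean ± SD, n = 3 each). All 6 activated-type markers were higher and all 6 germinal centre markers lower in untreated OCI-LY3 than in untreated SU-DHL6. The summed level of 7 B-cell markers was 3387 to 3648 CPM in treated and 2362 to 2424 CPM in untreated OCI-LY3, and 2951 to 3135 CPM in treated and 3278 to 3912 CPM in untreated SU-DHL6. With TMM scaling it moved the same way in each line as many members below, and its part in their changes was not tested. Of the 7 markers, 1 passed as higher and 5 as lower in SU-DHL6 (edgeR, adjusted p under 0.05), but 2 and 2 with total counts. In OCI-LY3 4 passed as higher and 0 as lower, or 3 and 0 with total counts. Of 11 myeloid markers, 6 (LYZ, MPO, FCGR1A, S100A8, S100A9 and MARCO) were at 0 in all 12 libraries. A count of 0 in a single library allows an expected count of up to 3. The summed level of all 11 myeloid markers was 19.3 to 21.8 CPM in treated and 29.4 to 32.0 CPM in untreated OCI-LY3, and under 1 CPM in every SU-DHL6 library. The summed level of 6 T-cell markers (CD3G and CD2 at 0 throughout) was 2.93 to 4.5 CPM in treated and 1.6 to 2.57 CPM in untreated OCI-LY3, and 18.5 to 21.6 CPM in treated and 35.3 to 37.1 CPM in untreated SU-DHL6. That of 7 stromal and epithelial markers (COL3A1, EPCAM and KRT18 at 0 throughout) was 55.9 to 67.4 CPM in treated and 25.5 to 27.8 CPM in untreated OCI-LY3, and at most 1.12 CPM in SU-DHL6, and the part of these lists in the results was not tested either. Single genes made up much of these sums. In OCI-LY3 libraries ITGAM was 75.6% to 98.6% of the myeloid sum, and COL1A1 50.1% to 86.8% of the stromal and epithelial sum. TRAC was 92.2% to 98.6% of the T-cell sum in SU-DHL6 libraries.

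In OCI-LY3, 16 of the 39 members tested rose with selinexor and 5 fell, whereas in SU-DHL6 8 rose and 15 fell. Called means an adjusted p under 0.05 in edgeR's quasi-likelihood test with Benjamini-Hochberg adjustment over 16474 genes. At that threshold 22.2% of all genes rose and 22.2% fell in OCI-LY3, and 20.4% rose and 22.8% fell in SU-DHL6, which makes 44.4% and 43.2% called in either direction. The split depended on scaling: with libraries scaled by total counts, the median log2 fold change over all genes was 0.27 in SU-DHL6 and -0.09 in OCI-LY3 in place of 0.00, and 15 members were called higher and 2 lower in SU-DHL6, and 13 higher and 7 lower in OCI-LY3. Under that scaling 33.1% of all genes were higher and 14.4% lower in SU-DHL6, and 17.8% higher and 26.6% lower in OCI-LY3. Single libraries moved the SU-DHL6 counts as well, to 4 rises without its treated library 1 (18.2% of all genes then rose), and to 8 falls without untreated library 3 and 9 without treated library 2 (18.1% and 19.1% of all genes then fell). With the replicate number as a block, 5 members rose there (18% of all genes). Changes are therefore relative to the median gene, and in SU-DHL6 the falls that passed the test under either scaling were those of GABARAP and HEXA. In bulk RNA fewer cells of a type and less RNA per cell cannot be told apart.

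Lysosomal genes and the autophagy machinery each held rises and falls in both lines. Of 19 lysosomal genes, 10 rose and 3 fell in OCI-LY3 (median log2 fold change 0.28), and 4 rose and 8 fell in SU-DHL6 (median -0.04). Of 18 genes of the machinery, 6 rose and 2 fell in OCI-LY3 (median 0.15), and 4 rose and 6 fell in SU-DHL6 (median -0.05). The medians over all genes were 0.00 in both lines. With total counts the medians of the machinery and the lysosomal list were 0.03 and 0.16 in OCI-LY3, against -0.09 over all genes, and 0.21 and 0.23 in SU-DHL6, against 0.27. With that scaling the calls were 6 higher and 2 lower for the machinery and 7 and 4 for the lysosomal list in OCI-LY3, and 7 and 1, and 8 and 1, in SU-DHL6.

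Called changes went in opposite directions in 7 members, which rose in OCI-LY3 and fell in SU-DHL6: GABARAP, ATG13, WIPI2, LAMP1, CTSH, CTSZ and HEXA. The reverse pattern was not called in any member. Over all genes, 4.43% were called higher in OCI-LY3 and lower in SU-DHL6, and 3.37% the other way. Of the 7, GABARAP alone kept both calls with total counts. The SU-DHL6 falls of ATG13, WIPI2, LAMP1, CTSH and CTSZ were then lost, as were the OCI-LY3 rises of LAMP1 and HEXA. ATG3 was then called lower in OCI-LY3 and higher in SU-DHL6. GABARAPL2, BECN1, CTSA, PSAP and GRN rose in both lines (5.95% of all genes did), and CTSB, CTSC and GAA fell in both (8.83% of all genes did). The difference between the responses (OCI-LY3 minus SU-DHL6) was called for 13 members, 9 higher and 4 lower, against 19.9% and 17% of all genes (36.9% in either direction), so calls were no more frequent among the members. With total counts it was called higher for 8 members and lower for 11, against 11% and 29.7% of all genes.

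**Figure D1:**
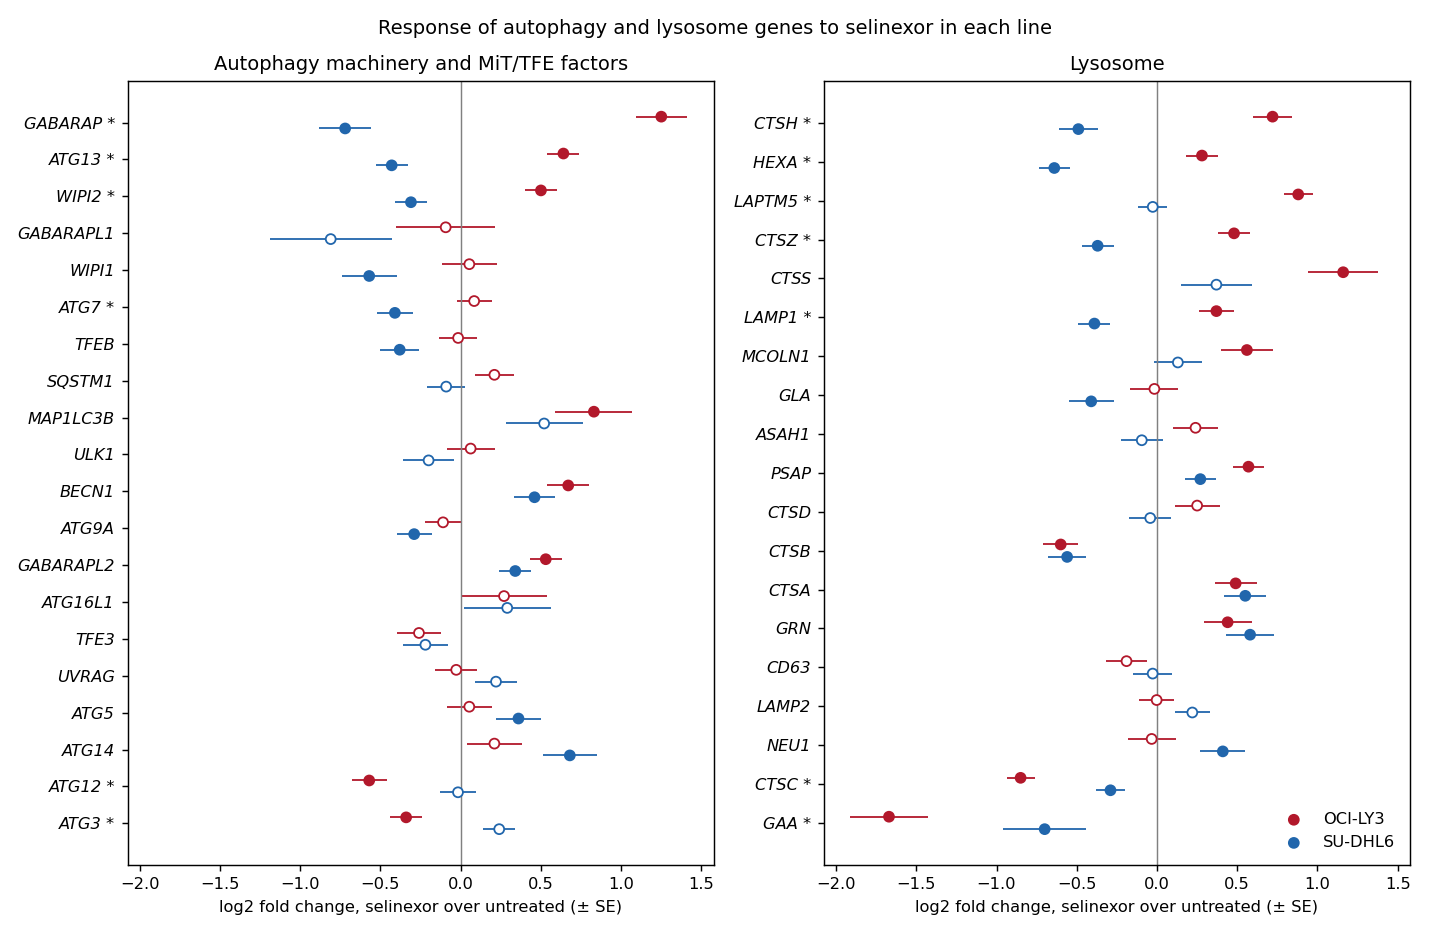
Log2 fold change (selinexor over untreated, ± SE from the fit) of 39 members in OCI-LY3 (red) and SU-DHL6 (blue), ordered by the difference between the lines. Filled points passed an adjusted p of 0.05 and an asterisk marks the 13 members whose responses differed between the lines; GABARAP stands at the top with 1.25 in OCI-LY3 and -0.72 in SU-DHL6, and 13 of the 15 filled falls in SU-DHL6 were lost with libraries scaled by total counts.

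Among the MiT/TFE factors, the one call was a fall of TFEB in SU-DHL6. TFEB, the factor best known for driving lysosomal genes, had 146, 130 and 110 CPM in treated OCI-LY3 against 126, 124 and 140 CPM in untreated OCI-LY3 (log2 fold change -0.02 ± 0.12 SE, adjusted p = 0.945). In SU-DHL6 it had 178, 152 and 171 CPM with selinexor against 182, 234 and 234 CPM without, a fall of -0.38 ± 0.12 (adjusted p = 0.0245). The SU-DHL6 groups did not overlap, but the call was lost without untreated library 2 or 3 (adjusted p = 0.0856 and 0.13), without treated library 2 or 3 (0.0985 and 0.0501), with the replicate number as a block (0.0701), with total counts (-0.11, adjusted p = 0.463), and once library-specific trends on GC content and gene length were removed (-0.13, adjusted p = 0.213). The difference between the lines was 0.36 ± 0.18 and did not pass (adjusted p = 0.127), although it did without untreated SU-DHL6 library 1 (0.48, adjusted p = 0.0271), or without it and treated OCI-LY3 library 3 (0.58, adjusted p = 0.0044). TFE3, the related factor, had -0.26 ± 0.14 in OCI-LY3 and -0.22 ± 0.14 in SU-DHL6 (adjusted p = 0.134 and 0.204), and passed in SU-DHL6 without untreated library 1 (-0.37, adjusted p = 0.0222, or 0.0236 with treated OCI-LY3 library 3 left out too). In OCI-LY3 it passed with total counts (-0.38, adjusted p = 0.0295) and after removal of GC and length trends (-0.31, adjusted p = 0.0192). MITF had 0 counts in all 12 libraries, where a count of 0 in a single library allows an expected count of up to 3.

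Promoters are shown for 5 members to set the E-box these factors bind beside genes that moved in different directions. The windows cover 250 bases before to 50 bases after the RefSeq gene start on GRCh38.p14 and are read 5′ to 3′ on the gene's own strand. Capitals mark CACGTG together with the flanking bases that complete TCACGTGA or GTCACGTG.

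LAMP1 promoter (chr13:113296989-113297288, + strand): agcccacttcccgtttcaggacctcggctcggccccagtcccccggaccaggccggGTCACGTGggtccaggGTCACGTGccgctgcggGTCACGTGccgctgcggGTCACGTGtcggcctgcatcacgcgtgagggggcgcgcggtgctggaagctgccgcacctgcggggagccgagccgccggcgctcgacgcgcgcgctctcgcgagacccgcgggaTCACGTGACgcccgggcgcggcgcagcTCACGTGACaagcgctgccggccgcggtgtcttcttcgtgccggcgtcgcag

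CTSA promoter (chr20:45891085-45891384, + strand): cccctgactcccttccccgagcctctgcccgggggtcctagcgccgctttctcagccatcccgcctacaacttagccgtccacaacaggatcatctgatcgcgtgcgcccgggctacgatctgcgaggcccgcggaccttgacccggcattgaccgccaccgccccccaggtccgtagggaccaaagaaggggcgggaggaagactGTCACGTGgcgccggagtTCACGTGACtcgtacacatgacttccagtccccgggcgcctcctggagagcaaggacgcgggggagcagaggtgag

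MCOLN1 promoter (chr19:7522374-7522673, + strand): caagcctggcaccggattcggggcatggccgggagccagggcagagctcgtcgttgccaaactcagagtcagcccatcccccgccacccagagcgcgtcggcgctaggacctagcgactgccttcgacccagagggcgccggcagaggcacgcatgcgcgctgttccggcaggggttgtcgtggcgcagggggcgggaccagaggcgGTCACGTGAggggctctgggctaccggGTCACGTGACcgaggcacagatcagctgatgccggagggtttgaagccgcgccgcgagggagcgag

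GAA promoter (chr17:80101331-80101630, + strand): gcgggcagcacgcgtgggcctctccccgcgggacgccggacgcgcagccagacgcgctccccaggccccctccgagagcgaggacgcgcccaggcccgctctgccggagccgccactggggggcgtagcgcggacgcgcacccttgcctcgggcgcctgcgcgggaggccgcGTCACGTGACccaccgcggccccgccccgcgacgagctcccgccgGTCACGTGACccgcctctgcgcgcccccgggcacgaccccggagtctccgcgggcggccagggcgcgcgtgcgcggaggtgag

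ATG3 promoter (chr3:112561913-112562212, - strand): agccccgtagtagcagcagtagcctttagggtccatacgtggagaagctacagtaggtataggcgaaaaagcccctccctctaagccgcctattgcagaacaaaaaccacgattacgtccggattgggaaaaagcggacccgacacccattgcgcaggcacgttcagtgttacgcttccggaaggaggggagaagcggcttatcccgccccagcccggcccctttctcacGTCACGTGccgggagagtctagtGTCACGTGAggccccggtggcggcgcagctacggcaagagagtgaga

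CACGTG was searched on both strands, as were the longer motifs GTCACGTG and TCACGTGA, both of which contain it. RefSeq promoters were found for 33 of the 40 members, and not for UVRAG, LAMP2, CTSB, CTSS, HEXA, PSAP and ASAH1. Other starts of a gene were not searched. Some windows, such as those of ATG16L1, ATG5, BECN1 and MAP1LC3B, lay inside the bounds of the gene in GENCODE 29. CACGTG stood in 9 of the 33 windows (27.3%), against 7.43% of 27305 promoters of the same length. The 9 were ATG3, ATG14, LAMP1, CTSA, CTSD, GAA, NEU1, MCOLN1 and CD63. GTCACGTG was in 7 of the 33 (21.2%, against 2.53%) and TCACGTGA in 5 (15.2%, against 1.04%). Many genes of this kind are already known to carry this E-box, so the larger shares are not a finding of these data. The promoters compared were not matched for gene type or GC content. The window of LAMP1 held 6 copies of CACGTG, and those of CTSA, MCOLN1, GAA and ATG3 held 2 each. With TMM scaling, holders did not share a direction. In OCI-LY3 LAMP1, CTSA and MCOLN1 rose, GAA and ATG3 fell, and ATG14, CTSD, NEU1 and CD63 did not pass the test. In SU-DHL6 CTSA, ATG14 and NEU1 rose, LAMP1 and GAA fell, and the other 4 did not pass. The SU-DHL6 pattern depended on scaling. With total counts the falls of LAMP1 and GAA there were lost and ATG3 and MCOLN1 were called higher, so no holder was called lower. In OCI-LY3 the LAMP1 rise was then lost and CD63 was called lower. A match is a run of letters and does not show that a factor binds there.

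In the initiation complex, ATG13 rose in OCI-LY3 and fell in SU-DHL6, while ULK1 did not pass in either line. ATG13, the adaptor that carries nutrient signals to the ULK1 kinase (chr11:46617527-46674818), had 160, 152 and 152 CPM in treated OCI-LY3, against 89.9, 107 and 101 CPM in untreated OCI-LY3. In SU-DHL6 the treated libraries had 83.2, 78.2 and 86.5 CPM, against 97.7, 118 and 117 CPM untreated. Treated and untreated libraries did not overlap in either line. The log2 fold changes were 0.64 ± 0.10 in OCI-LY3 (adjusted p = 0.00014) and -0.43 ± 0.10 in SU-DHL6 (adjusted p = 0.00336), and the responses differed by 1.07 ± 0.14 (adjusted p = 5.74e-05). With total counts the SU-DHL6 value was -0.16 (adjusted p = 0.18). ULK1, the kinase itself, averaged 66.8 ± 8.42 and 64 ± 4.16 CPM in treated and untreated OCI-LY3, and 7.02 ± 1.4 and 8.06 ± 1.24 CPM in treated and untreated SU-DHL6 (SD, n = 3). Its responses were 0.06 ± 0.15 and -0.20 ± 0.16 (adjusted p = 0.772 and 0.357).

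Among the genes that mark and feed the growing membrane, BECN1 rose in both lines and WIPI2 rose in OCI-LY3 and fell in SU-DHL6. BECN1 encodes Beclin 1, the scaffold of the lipid kinase complex, and had 43.5, 43 and 47 CPM in treated against 28.9, 26.3 and 28.5 CPM in untreated OCI-LY3 (0.67 ± 0.13, adjusted p = 0.000769). SU-DHL6 libraries had 71.2, 55.2 and 48.7 CPM with selinexor against 45.1, 42.1 and 40 CPM without (0.46 ± 0.13, adjusted p = 0.00949). The groups did not overlap in either line, and the SU-DHL6 call was lost without treated library 1 (adjusted p = 0.0549). ATG14, which directs the complex to autophagosomes, had 20.5, 22.2 and 20.7 CPM in treated and 13.7, 15.3 and 10.4 CPM in untreated SU-DHL6 (0.68 ± 0.17, adjusted p = 0.00424). In OCI-LY3 its groups overlapped (0.21 ± 0.17, adjusted p = 0.33), and the responses did not differ by test (-0.47 ± 0.24, adjusted p = 0.138) except with total counts (-0.85, adjusted p = 0.0119). UVRAG, its counterpart on endosomes, did not pass in either line (-0.03 ± 0.13 and 0.22 ± 0.13), although its SU-DHL6 value did without treated library 3 (0.37, adjusted p = 0.0165) and with total counts (0.48, adjusted p = 0.00753), where the difference passed too (-0.63, adjusted p = 0.0155).

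WIPI2 binds the lipid that this complex makes and brings in the conjugation machinery. It had 79.3, 83.6 and 87.6 CPM in treated OCI-LY3 against 62.8, 59.6 and 54.2 CPM in untreated OCI-LY3, and 129, 134 and 124 CPM in treated SU-DHL6 against 137, 171 and 172 CPM in untreated SU-DHL6. Again no treated library overlapped an untreated one of its line. The rise was 0.50 ± 0.10 (adjusted p = 0.00134), the fall -0.31 ± 0.10 (adjusted p = 0.0231) and the difference 0.82 ± 0.15 (adjusted p = 0.000615). The fall alone was lost without untreated SU-DHL6 library 2 or 3 (adjusted p = 0.0837 and 0.143), without treated library 3 (0.0769), with SU-DHL6 fitted alone (0.0653), without the filter on low counts (0.054) and with the replicate number as a block (0.0629). It was -0.05 with total counts (adjusted p = 0.731) and -0.18 after removal of GC and length trends (adjusted p = 0.129). WIPI1, its relative, fell in SU-DHL6 (-0.57 ± 0.17, adjusted p = 0.0141) and did not pass in OCI-LY3 (0.05 ± 0.17), and 24.3% of its exonic bases lie under ARSG on the opposite strand. That fall was lost without untreated library 2 or treated library 2 (adjusted p = 0.059 and 0.0664), with total counts (-0.30, adjusted p = 0.167) and after removal of GC and length trends (-0.40, adjusted p = 0.0535). The difference of the WIPI1 responses, 0.62 ± 0.24 (adjusted p = 0.056), passed without untreated SU-DHL6 library 1 or treated library 3 (0.0353 and 0.0324) and in limma-voom (0.0424). ATG9A, a lipid scramblase carried on seed vesicles, had -0.29 ± 0.11 in SU-DHL6 (adjusted p = 0.0424) and -0.11 ± 0.11 in OCI-LY3, and its call was lost in 12 of the 22 alternative analyses that kept the threshold (highest adjusted p = 0.872, with total counts at -0.03), among them the fit without GC and length trends (-0.13, adjusted p = 0.258), the fits without SU-DHL6 untreated library 2 or 3 (0.14 and 0.178) or treated library 2 or 3 (0.102 and 0.117), and without OCI-LY3 untreated library 1 or treated library 2 (0.0526 and 0.0554). AC068946.2 shares 38.8% of ATG9A's exonic bases on the same strand.

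Of the conjugation genes, ATG12 and ATG3 fell in OCI-LY3, and ATG7 fell and ATG5 rose in SU-DHL6. ATG12, the ubiquitin-like protein joined to ATG5, had 17.7, 16.1 and 15.9 CPM in treated and 23.9, 23.6 and 26.3 CPM in untreated OCI-LY3 (-0.57 ± 0.11, adjusted p = 0.00084). In SU-DHL6 it averaged 36 ± 3.54 CPM with selinexor and 36.4 ± 1.69 CPM without (-0.02 ± 0.11). ATG3, the enzyme that hands ATG8 proteins to the membrane lipid, had 47.3, 38.3 and 47.2 CPM in treated and 55.8, 55.7 and 56.1 CPM in untreated OCI-LY3 (-0.34 ± 0.10, adjusted p = 0.0152). Its SU-DHL6 value was 0.24 ± 0.10 (adjusted p = 0.0674), which passed in 7 of 22 alternatives, among them total counts (0.51, adjusted p = 0.00159), DESeq2 and limma-voom (0.0447 and 0.0452) and the fits without untreated SU-DHL6 library 1 or treated OCI-LY3 library 2 (0.038 and 0.0477). The OCI-LY3 call was lost without treated library 2 (adjusted p = 0.0864) and after removal of GC and length trends (-0.22, adjusted p = 0.0586). The responses of both genes were lower in OCI-LY3 than in SU-DHL6, with differences of -0.55 ± 0.15 for ATG12 (adjusted p = 0.0119) and -0.58 ± 0.14 for ATG3 (adjusted p = 0.00587). Neither difference passed after removal of GC and length trends (-0.16, adjusted p = 0.51, and -0.32, adjusted p = 0.0593).

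ATG7, the activating enzyme of both conjugation reactions, had 17.4, 17.9 and 20.9 CPM in treated and 25.8, 25 and 24.1 CPM in untreated SU-DHL6 (-0.41 ± 0.11, adjusted p = 0.00918, or -0.15 and 0.353 with total counts). In OCI-LY3 its groups overlapped at 23.1 ± 0.575 and 21.8 ± 1.99 CPM (0.08 ± 0.11). The difference of 0.50 ± 0.16 (adjusted p = 0.0264) was lost in 9 of 21 alternatives, among them the fits without treated SU-DHL6 library 1 or 2 (adjusted p = 0.0569 and 0.0608), without untreated SU-DHL6 library 3 (0.0565), without untreated or treated OCI-LY3 library 2 (0.0698 and 0.0508), with total counts (0.12, adjusted p = 0.65) and after removal of GC and length trends (0.36, adjusted p = 0.0516). VGLL4 covers 18.1% of its exonic bases on the opposite strand with more counts in all (14859 against 3982), and VGLL4 did not pass in either line (-0.09 and 0.03). ATG5, the partner of ATG12, had 0.36 ± 0.14 in SU-DHL6 (adjusted p = 0.0491), and 0.05 ± 0.14 in OCI-LY3. The SU-DHL6 call was lost in 14 of 22 alternatives (highest adjusted p = 0.217), among them the fits without any 1 library other than treated OCI-LY3 library 3 and untreated SU-DHL6 library 1, and the fit without GC and length trends (0.19, adjusted p = 0.167). The ATG5 difference was called with total counts (-0.68, adjusted p = 0.0201, against -0.31 and 0.254 with TMM). ATG16L1, which places the ATG12 and ATG5 conjugate on the membrane, did not pass, and its untreated SU-DHL6 libraries ranged over 29.6, 13.5 and 25.5 CPM.

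The widest split between the lines was in GABARAP, a member of the ATG8 family (chr17:7240014-7242770). Its level was 189, 167 and 212 CPM in treated OCI-LY3, against 73, 84.2 and 81.3 CPM in untreated OCI-LY3. It was 120, 81.6 and 96.8 CPM in treated SU-DHL6, against 126, 187 and 179 CPM in untreated SU-DHL6. All treated OCI-LY3 libraries lay above all untreated ones, and all treated SU-DHL6 libraries below theirs, the nearest being treated library 1 and untreated library 1. The rise of 1.25 ± 0.16 (2.38-fold, adjusted p = 3.04e-05), the fall of -0.72 ± 0.16 (0.607-fold, adjusted p = 0.00243) and the difference of 1.97 ± 0.23 (adjusted p = 2.02e-05) held their calls in every alternative analysis run apart from those with another threshold. The difference ranged over 1.59 to 2.14 in them. AC120057.2 shares 30.5% of GABARAP's exonic bases on the same strand. It had 1100 counts in all against 23629 for GABARAP, and did not pass in either line (-0.12 and 0.11).

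Of the other ATG8 genes, GABARAPL2 rose in both lines and MAP1LC3B in OCI-LY3. GABARAPL2 had 117, 116 and 131 CPM in treated and 87.9, 85.9 and 78.2 CPM in untreated OCI-LY3 (0.53 ± 0.10, adjusted p = 0.000597). In SU-DHL6 it had 95.7, 81.5 and 81.6 CPM with selinexor and 64, 68.7 and 71.8 CPM without (0.34 ± 0.10, adjusted p = 0.0123, 0.0629 without treated library 1 and 0.0517 with the replicate number as a block). MAP1LC3B, which encodes the LC3 protein used to count autophagosomes, had 92.7, 59.6 and 106 CPM in treated and 49.6, 50.4 and 45.8 CPM in untreated OCI-LY3. In SU-DHL6 it had 151, 79.7 and 148 CPM with selinexor and 87.1, 84 and 92.2 CPM without. Treated library 2 was the lowest treated library in both lines, and in SU-DHL6 it lay below every untreated library. The changes were 0.83 ± 0.24 (adjusted p = 0.0152) in OCI-LY3 and 0.52 ± 0.24 (adjusted p = 0.0959) in SU-DHL6. Without its treated library 2 the SU-DHL6 rise was 0.77 (adjusted p = 0.0044), and it passed too without treated OCI-LY3 library 2 (0.52, adjusted p = 0.0456) and with total counts (0.79, adjusted p = 0.017). The OCI-LY3 call was lost without treated library 3 (adjusted p = 0.0664), treated library 3 and untreated SU-DHL6 library 1 (0.102) or untreated library 3 (0.0524), and without the filter on low counts (0.0558). GABARAPL1 had few counts, 49 to 74 counts a library in OCI-LY3 and 9 to 26 in SU-DHL6, and passed in neither line with all libraries, although its SU-DHL6 value did without treated library 1 (-1.3, adjusted p = 0.0186) or untreated library 2 (-1.1, adjusted p = 0.0341). SQSTM1 encodes p62, the receptor that ties ubiquitinated cargo to ATG8 proteins. It had 597, 519 and 464 CPM in treated and 461, 462 and 445 CPM in untreated OCI-LY3 (0.21 ± 0.12, adjusted p = 0.162), and -0.09 ± 0.12 in SU-DHL6 (adjusted p = 0.566). MRNIP lies over 20.7% of its exonic bases on the opposite strand with 4597 counts in all against 56293, and rose in SU-DHL6 (0.85, adjusted p = 0.000344).

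**Figure D2:**
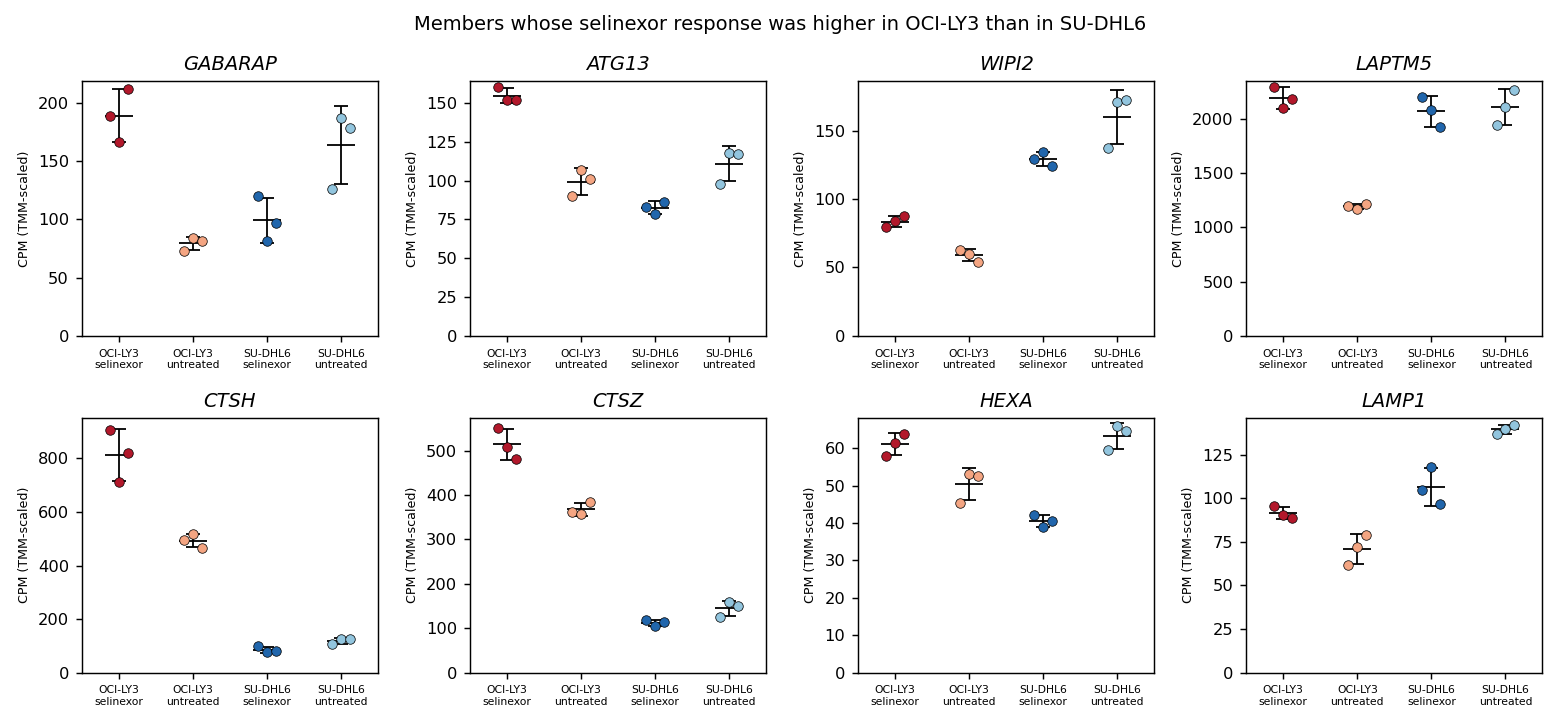
CPM (relative to TMM-scaled totals) in each library of the 4 groups for 8 members whose response was higher in OCI-LY3 than in SU-DHL6 (points are libraries, bars mean ± SD, n = 3; each axis starts at 0). In OCI-LY3 all 8 were higher with selinexor in every library; in SU-DHL6 LAPTM5 overlapped and the other 7 were lower, falls of which those of GABARAP and HEXA were still called with libraries scaled by total counts.

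Of the lysosomal membrane genes among the 40, LAPTM5 showed the strongest rise in OCI-LY3. LAPTM5 is a lysosomal protein of blood cells that helps route surface antigen receptors to degradation (chr1:30732469-30757820). Treated OCI-LY3 libraries had 2289, 2093 and 2184 CPM, against 1193, 1169 and 1213 CPM in untreated OCI-LY3 (0.88 ± 0.09, 1.84-fold, adjusted p = 3.17e-06). Treated SU-DHL6 libraries had 2202, 2078 and 1921 CPM, against 1943, 2108 and 2266 CPM in untreated SU-DHL6 (-0.03 ± 0.09, adjusted p = 0.854). The OCI-LY3 groups lay far apart and the SU-DHL6 groups overlapped, and treated OCI-LY3 cells stood at the level of both SU-DHL6 groups. That match between lines was seen with TMM scaling and rests on its factors. These were 0.8646 to 0.887 in treated OCI-LY3 libraries and 0.974 to 1.233 in SU-DHL6 libraries. The difference of 0.90 ± 0.13 (adjusted p = 9.71e-05) was called in all 21 alternatives that kept the threshold, while the SU-DHL6 value was 0.24 (adjusted p = 0.0173) with total counts.

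LAMP1, the abundant glycoprotein that lines the lysosomal membrane, rose in OCI-LY3 and fell in SU-DHL6. It had 95.7, 90.2 and 88.9 CPM in treated and 61.6, 72 and 79.2 CPM in untreated OCI-LY3 (0.37 ± 0.11, adjusted p = 0.0113), and 105, 118 and 96.6 CPM in treated and 137, 140 and 142 CPM in untreated SU-DHL6 (-0.39 ± 0.10, adjusted p = 0.0083). The groups did not overlap in either line. Its difference was 0.76 ± 0.15 (adjusted p = 0.00125). The rise was lost without untreated OCI-LY3 library 1 (0.28, adjusted p = 0.0658) and with total counts (0.25, adjusted p = 0.0551), as was the fall with total counts (-0.12, adjusted p = 0.336). LAMP2, its relative, had values of -0.0022 ± 0.11 in OCI-LY3 and 0.22 ± 0.11 in SU-DHL6 (adjusted p = 1 and 0.12), although the SU-DHL6 value passed without untreated library 1 (0.32, adjusted p = 0.0155, or 0.0148 with treated OCI-LY3 library 3 left out too) and with total counts (0.48, adjusted p = 0.00488), where the difference passed too (-0.59, adjusted p = 0.0128). MCOLN1, the lysosomal calcium channel, had 18.7, 16.6 and 16.5 CPM in treated and 11.9, 12.5 and 10.8 CPM in untreated OCI-LY3 (0.56 ± 0.16, adjusted p = 0.0101). Its SU-DHL6 groups overlapped (0.13 ± 0.15), although the value passed with total counts (0.40, adjusted p = 0.0403) and after removal of GC and length trends (0.38, adjusted p = 0.0243). The MCOLN1 responses did not differ by test (0.43 ± 0.22, adjusted p = 0.146) except without untreated SU-DHL6 library 1 or that library and treated OCI-LY3 library 3 (adjusted p = 0.0415 and 0.0454). CD63, a tetraspanin of late endosomes, did not pass in either line (-0.19 ± 0.13 and -0.03 ± 0.12), nor did its difference (-0.16, adjusted p = 0.512). With total counts its OCI-LY3 value was -0.31 (adjusted p = 0.0455) and its difference -0.55 (adjusted p = 0.0151), and after removal of GC and length trends these were -0.31 (adjusted p = 0.0163) and -0.52 (adjusted p = 0.00826).

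The cathepsins, the main lysosomal proteases, did not share a direction. CTSH and CTSZ rose in OCI-LY3 and fell in SU-DHL6. CTSH, an aminopeptidase (chr15:78921058-78949574), had 907, 713 and 820 CPM in treated and 494, 517 and 467 CPM in untreated OCI-LY3 (0.72 ± 0.12, adjusted p = 0.000161). The SU-DHL6 libraries had 97.6, 78.4 and 80.4 CPM with selinexor and 107, 124 and 127 CPM without (-0.49 ± 0.12, adjusted p = 0.00383), and the responses differed by 1.21 ± 0.16 (adjusted p = 6.79e-05). CTSZ, a carboxypeptidase, had 552, 509 and 482 CPM in treated and 361, 358 and 384 CPM in untreated OCI-LY3 (0.48 ± 0.10, adjusted p = 0.00146). Its SU-DHL6 libraries had 119, 105 and 113 CPM with selinexor and 125, 159 and 150 CPM without (-0.37 ± 0.10, adjusted p = 0.00999), and the difference was 0.85 ± 0.14 (adjusted p = 0.000401). No groups of a line overlapped for either gene. With total counts the SU-DHL6 values were -0.22 (adjusted p = 0.0922) and -0.10 (adjusted p = 0.398), and the CTSZ fall was also lost without untreated library 3 (adjusted p = 0.0588) and after removal of GC and length trends (-0.11, adjusted p = 0.179).

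CTSB and CTSC fell in both lines. CTSB, a cysteine protease, had 77.6, 90.5 and 87.6 CPM in treated and 127, 133 and 127 CPM in untreated OCI-LY3, and 10.2, 13.3 and 11.8 CPM in treated and 17.4, 15.8 and 19.1 CPM in untreated SU-DHL6. The changes were -0.60 ± 0.11 (adjusted p = 0.000551) and -0.56 ± 0.12 (adjusted p = 0.00159). Their difference was -0.04 ± 0.16 (adjusted p = 0.918). CTSC activates the serine proteases of killer cell and neutrophil granules, and had 441, 431 and 466 CPM in treated and 821, 813 and 785 CPM in untreated OCI-LY3 (-0.85 ± 0.09, adjusted p = 2.79e-06). Levels in SU-DHL6 were 50.4, 48.4 and 54.8 CPM with selinexor and 66, 57.3 and 64.4 CPM without (-0.29 ± 0.09, adjusted p = 0.017). That fall was lost without untreated library 3 or treated library 2 (adjusted p = 0.098 and 0.0705), with SU-DHL6 fitted alone (0.0782) and without the filter on low counts (0.0533), and with total counts the SU-DHL6 values of CTSB and CTSC were -0.30 (adjusted p = 0.0665) and -0.02 (adjusted p = 0.875). The difference of the CTSC responses was -0.56 ± 0.12 (adjusted p = 0.00263), and -0.12 (adjusted p = 0.507) after removal of GC and length trends.

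CTSA rose in both lines and CTSS in OCI-LY3. CTSA, a carboxypeptidase that shields NEU1 in the lysosome, had 42.9, 49.1 and 44.5 CPM in treated and 34, 31 and 32 CPM in untreated OCI-LY3, and 57.2, 43.1 and 54.5 CPM in treated and 29, 38.1 and 38.4 CPM in untreated SU-DHL6. Its rises were 0.49 ± 0.13 (adjusted p = 0.00827) and 0.55 ± 0.13 (adjusted p = 0.004), and NEURL2, with 554 counts against 7581 on the opposite strand of 17.7% of its exonic bases, fell in SU-DHL6 (-1.17, adjusted p = 0.0311). CTSS, the protease that finishes invariant chain digestion in antigen-presenting cells, had 297, 205 and 326 CPM in treated and 92.7, 171 and 108 CPM in untreated OCI-LY3 (1.16 ± 0.22, 2.23-fold, adjusted p = 0.00116). Library 2 was the lowest of the treated and the highest of the untreated OCI-LY3 libraries. In SU-DHL6 it had 121, 104 and 104 CPM with selinexor and 86.9, 74.8 and 93.1 CPM without (0.37 ± 0.22, adjusted p = 0.196), which passed with total counts (0.63, adjusted p = 0.0288) and with SU-DHL6 fitted alone (0.38, adjusted p = 0.0344). The responses did not differ by test (0.78 ± 0.31, adjusted p = 0.0671), although they did without treated or untreated OCI-LY3 library 2 (0.96, adjusted p = 0.0215, and 1.09, adjusted p = 0.0033), in DESeq2 (0.80, adjusted p = 0.0319) and after removal of GC and length trends (1.09, adjusted p = 0.0311). CTSD, the aspartic protease, did not pass in either line (0.25 ± 0.14 and -0.04 ± 0.13). AC068580.4 shares 41.7% of CTSD's exonic bases on the same strand, with 238 counts in all against 13250, and did not pass in either line.

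Among hydrolases of sugars and lipids, HEXA rose in OCI-LY3 and fell in SU-DHL6, and GAA fell in both. HEXA, the alpha chain of the hexosaminidase that is lost in Tay-Sachs disease, had 58, 61.5 and 63.7 CPM in treated and 45.4, 53.1 and 52.6 CPM in untreated OCI-LY3 (0.28 ± 0.10, adjusted p = 0.0319). Levels in SU-DHL6 were 42.2, 38.8 and 40.5 CPM with selinexor and 59.4, 65.9 and 64.6 CPM without (-0.64 ± 0.10, adjusted p = 0.000113). The fall was called in all 22 alternatives that kept the threshold and the difference of 0.92 ± 0.14 (adjusted p = 0.000153) in all 21. The OCI-LY3 rise was lost in 9 of 22, among them total counts (0.16, adjusted p = 0.186) and the fits without untreated OCI-LY3 library 1 or 3 (adjusted p = 0.148 and 0.0502), without treated library 2 or 3 (0.0786 and 0.0942) and without untreated SU-DHL6 library 3 (0.0513). GAA, the glycogen-degrading enzyme lost in Pompe disease, had 12.9, 13.1 and 6.34 CPM in treated and 30.4, 34.3 and 38.3 CPM in untreated OCI-LY3. That fall of -1.67 ± 0.24 (0.314-fold, adjusted p = 5.84e-05) was the largest of any member in either line. In SU-DHL6 its levels were 2.38, 3.13 and 3.1 CPM with selinexor and 3.66, 5.53 and 4.77 CPM without (-0.70 ± 0.26, adjusted p = 0.0462), a call lost in 13 of 22 alternatives, with the highest adjusted p under total counts (-0.42, adjusted p = 0.196). Single libraries that ended it were untreated SU-DHL6 library 2 or 3 (adjusted p = 0.164 and 0.114), each treated SU-DHL6 library (0.141, 0.0734 and 0.0737) and each untreated OCI-LY3 library (0.0525, 0.0571 and 0.0534). The difference of -0.98 ± 0.35 (adjusted p = 0.0427) was lost in 10 of 21. It was -0.70 (adjusted p = 0.0523) without treated OCI-LY3 library 3 and -0.55 (adjusted p = 0.0814) without that library and untreated SU-DHL6 library 1, and was also lost without untreated OCI-LY3 library 2 or 3 (0.0728 and 0.0935), untreated SU-DHL6 library 1 or 3 (0.094 and 0.06) and treated SU-DHL6 library 2 or 3 (0.0965 and 0.0916).

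PSAP and GRN rose in both lines. PSAP, the precursor of the saposins that present lipids to hydrolases, had 269, 264 and 256 CPM in treated and 174, 177 and 179 CPM in untreated OCI-LY3 (0.57 ± 0.10, adjusted p = 0.000254). SU-DHL6 libraries had 306, 278 and 298 CPM with selinexor and 208, 264 and 259 CPM without (0.27 ± 0.10, adjusted p = 0.0337). Without untreated library 1 the SU-DHL6 value was 0.16 (adjusted p = 0.106) and the lines differed by 0.41 (adjusted p = 0.00626, against 0.097 with it), and the call was also lost without treated library 1 or 3 (adjusted p = 0.0962 and 0.0858) or any 1 untreated OCI-LY3 library (0.0529, 0.0546 and 0.053). It was lost, too, with SU-DHL6 fitted alone (0.0904), with the replicate number as a block (0.0802) and without the filter on low counts (0.0607). GRN, the progranulin gene, had 437, 456 and 387 CPM in treated and 342, 305 and 296 CPM in untreated OCI-LY3 (0.44 ± 0.15, adjusted p = 0.0258). Its SU-DHL6 levels were 194, 176 and 128 CPM with selinexor and 90.4, 122 and 120 CPM without (0.58 ± 0.15, adjusted p = 0.00632). Its OCI-LY3 call was lost without untreated library 2 or 3 (adjusted p = 0.0751 and 0.0872), without treated library 1 or 2 (0.0683 and 0.086), with the replicate number as a block (0.0575) and with total counts (0.33, adjusted p = 0.0607), where the difference was called (-0.52, adjusted p = 0.0412, against -0.14 and 0.663 with TMM).

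NEU1, the lysosomal sialidase, had 88.5, 112 and 107 CPM in treated and 71.4, 76.3 and 83.2 CPM in untreated SU-DHL6 (0.41 ± 0.14, adjusted p = 0.0247), and -0.03 ± 0.15 in OCI-LY3. GLA, the alpha-galactosidase lost in Fabry disease, had 18.3, 13.2 and 15.9 CPM in treated and 21.4, 18.9 and 22.5 CPM in untreated SU-DHL6 (-0.41 ± 0.14, adjusted p = 0.0337), and -0.02 ± 0.15 in OCI-LY3. These calls were lost in 5 and 9 of 22 alternatives, the NEU1 one without untreated library 1 or 2 (adjusted p = 0.0721 and 0.0673) or treated library 2 or 3 (0.0965 and 0.0779), and the GLA one without untreated library 1 or 3 (0.0586 and 0.147) or treated library 2 or 3 (0.148 and 0.0721). The GLA value was -0.14 with total counts (adjusted p = 0.444) and -0.25 after removal of GC and length trends (adjusted p = 0.126). Neither gene's responses differed between lines by test (-0.45 ± 0.20, adjusted p = 0.096, and 0.39 ± 0.20, adjusted p = 0.154), although the NEU1 difference passed with total counts (-0.83, adjusted p = 0.0041) and after removal of GC and length trends (-0.61, adjusted p = 0.0191). ASAH1, the acid ceramidase, passed in neither line (0.24 ± 0.14 and -0.09 ± 0.13). After removal of GC and length trends it was called in both, at 0.44 (adjusted p = 0.00995) in OCI-LY3 and -0.36 (adjusted p = 0.0269) in SU-DHL6, and the difference was 0.80 (adjusted p = 0.00264, against 0.34 and 0.184 with those trends left in).

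**Figure D3:**
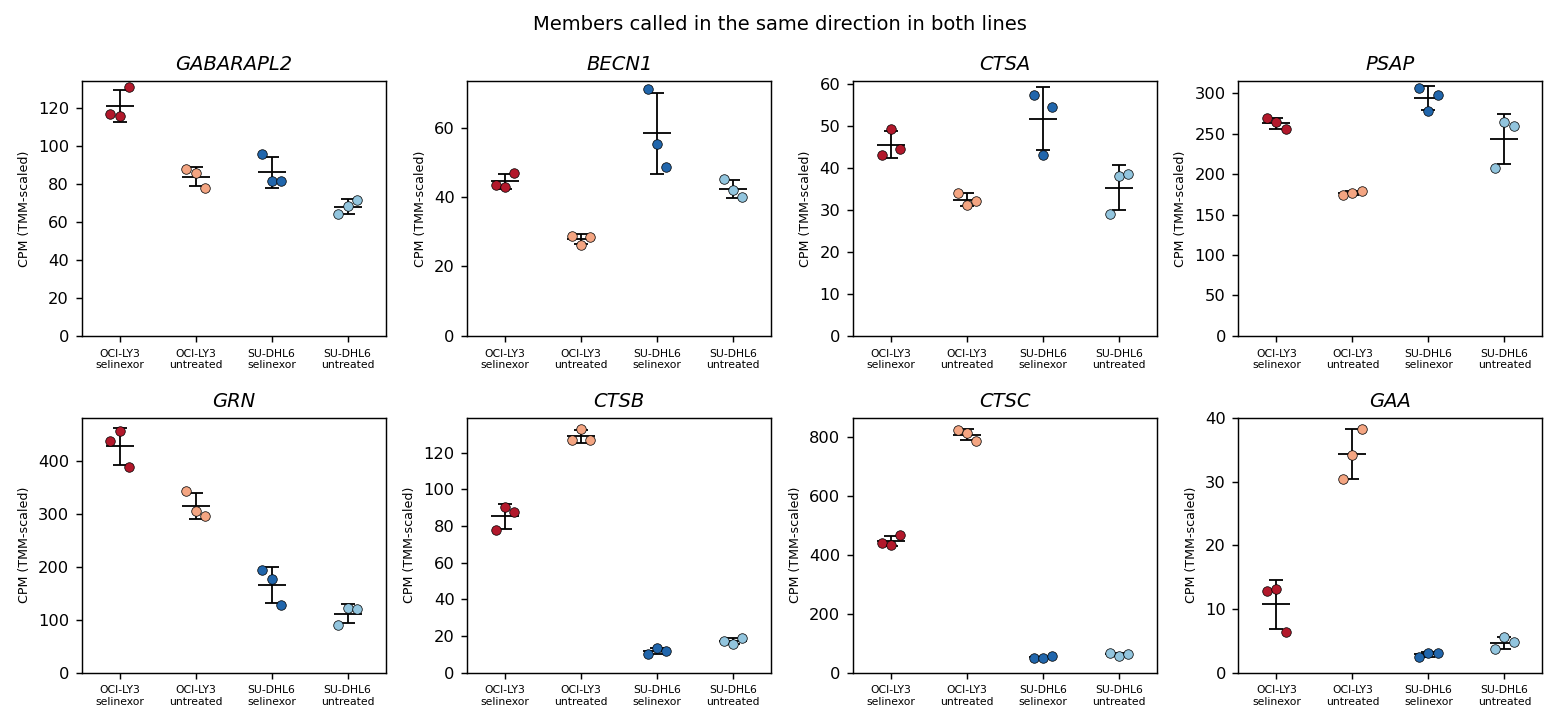
CPM (relative to TMM-scaled totals) in each library for the 8 members called in the same direction in both lines (points are libraries, bars mean ± SD, n = 3; each axis starts at 0). GABARAPL2, BECN1, CTSA, PSAP and GRN were higher and CTSB, CTSC and GAA lower with selinexor in both lines, and the 3 falls were not called in SU-DHL6 with libraries scaled by total counts.

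Summed over its members, the lysosomal list stood at 5445 ± 249 CPM in treated and 3999 ± 35.3 CPM in untreated OCI-LY3. In SU-DHL6 it stood at 3453 ± 186 CPM with selinexor and 3461 ± 256 CPM without, or 4130 and 3445 CPM with total counts. LAPTM5 made up a large part: without it the sums were 3256 ± 151 and 2808 ± 56.4 CPM in treated and untreated OCI-LY3, and 1386 ± 49.9 and 1356 ± 99.1 CPM in treated and untreated SU-DHL6. The autophagy machinery summed to 1511 ± 79.8 CPM in treated and 1175 ± 12.1 CPM in untreated OCI-LY3. In SU-DHL6 its sums were 1066 ± 83.2 CPM with selinexor and 1114 ± 68.1 CPM without, an order that turned to 1276 and 1109 CPM with total counts.

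Set against one another per length, as CPM per kilobase of merged exons, lysosomal genes held most of the top places. LAPTM5 was highest in every group, at 668 ± 30 in treated and 364 ± 6.78 in untreated OCI-LY3, and 631 ± 43 in treated and 643 ± 49.4 in untreated SU-DHL6. In treated OCI-LY3 it was followed by CTSZ (252 ± 17.2), CTSH (138 ± 16.5), GRN (116 ± 9.7), GABARAP (83.4 ± 10) and PSAP (81.2 ± 2.07), and the levels of GABARAP and PSAP lay within 1 SD of each other. Untreated OCI-LY3 cells had CTSZ (180 ± 6.92), GRN (85.4 ± 6.62), CTSH (83.6 ± 4.29) and CTSC (70.6 ± 1.62) next, of which GRN and CTSH lay within 1 SD. In treated SU-DHL6 the next were PSAP (90.7 ± 4.55), CTSZ (55 ± 3.5), GRN (45.1 ± 9.15) and GABARAP (43.9 ± 8.48), and GRN and GABARAP lay within 1 SD. Untreated SU-DHL6 had PSAP (75.2 ± 9.52), GABARAP (72.3 ± 14.5) and CTSZ (70.9 ± 8.72) within 1 SD of one another, then TFEB (38.4 ± 5.27). GABARAP was the highest of the 4 ATG8 genes in every group, and in untreated OCI-LY3 stood at 35.1 ± 2.58 beside 27.7 ± 1.68 for GABARAPL2. GABARAPL1 was the lowest of the members with counts in SU-DHL6 (0.196 ± 0.102 treated and 0.346 ± 0.134 untreated).

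**Figure D4:**
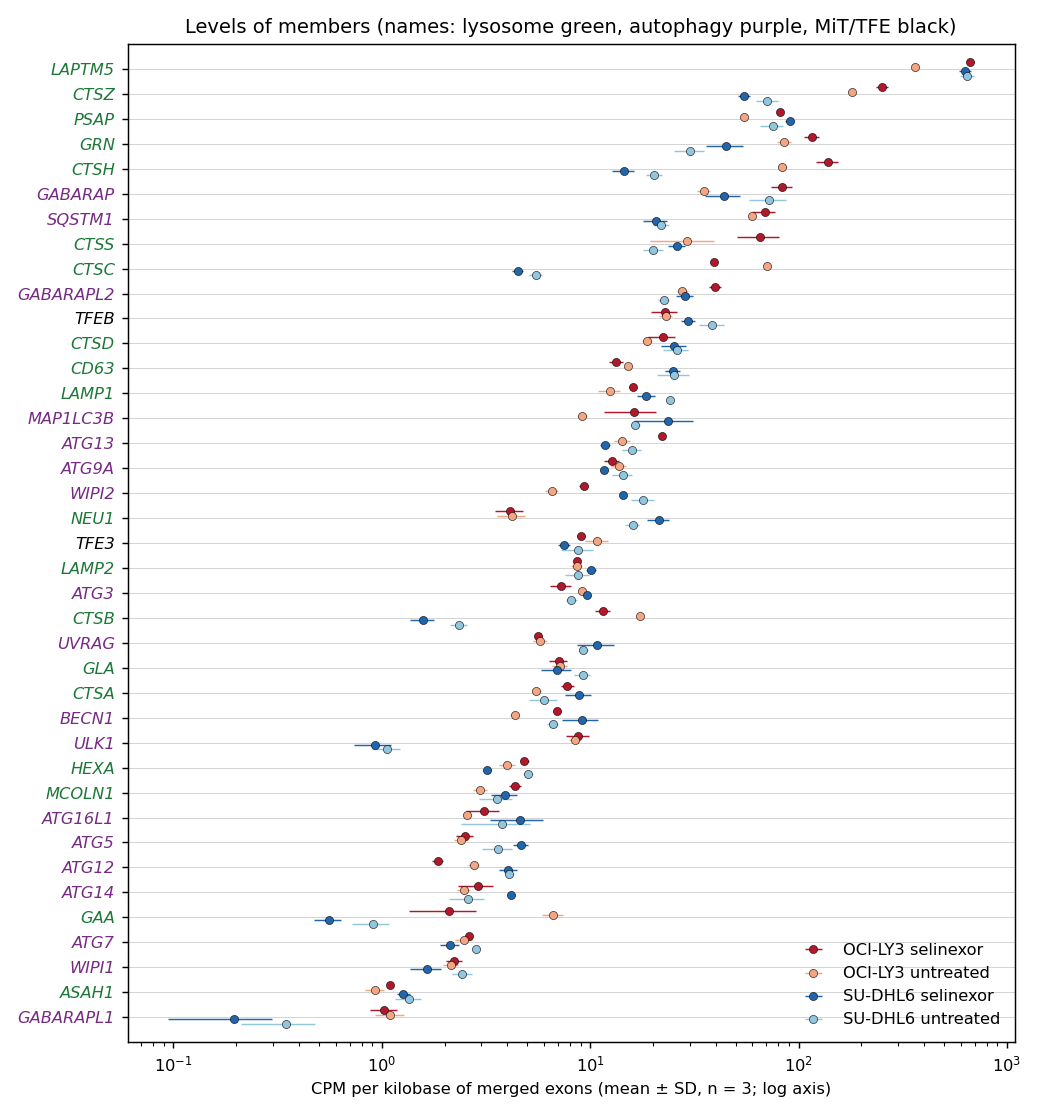
Level per length (CPM per kilobase of merged exons, log axis) of the 39 members with counts, one row a gene, with a point for each group (mean ± SD, n = 3). LAPTM5 is at the top of every group. For CTSC, CTSB, GAA and ULK1, and for others such as CTSH, CTSZ, GRN and SQSTM1, both OCI-LY3 groups lie to the right of both SU-DHL6 groups.

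Without the drug, 11 members were higher and 17 lower in untreated OCI-LY3 than in untreated SU-DHL6. Calls were about as frequent over all genes, of which 33.6% were higher and 33.7% lower (67.3% in either direction). CTSC was 3.69 ± 0.10 log2 units higher (806 ± 18.5 and 62.6 ± 4.63 CPM, adjusted p = 4.41e-13), ULK1 2.99 ± 0.16, CTSB 2.89 ± 0.12 and GAA 2.88 ± 0.25. CTSH, GABARAPL1, GRN, SQSTM1 and CTSZ were higher by 1.35 to 2.04. The largest deficits in OCI-LY3 were in NEU1 (-1.92 ± 0.14, 20.4 ± 3.12 and 77 ± 5.92 CPM), WIPI2 (-1.44 ± 0.11) and GABARAP (-1.04 ± 0.16). LAMP1 (-0.97 ± 0.11), MAP1LC3B (-0.85 ± 0.24), LAPTM5 (-0.82 ± 0.09), TFEB (-0.74 ± 0.12) and CD63 (-0.74 ± 0.13) were lower too. Of the 9 members with a higher response in OCI-LY3, GABARAP, WIPI2, LAMP1, HEXA and LAPTM5 were lower in untreated OCI-LY3, CTSH and CTSZ were higher, and ATG7 and ATG13 did not pass. These contrasts share the untreated libraries with the responses, so no relation between them was computed.

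Other genes of the pathway were counted from lists outside the members, with the SU-DHL6 counts under total-count scaling added where the split moved. For comparison, 22.2% of all genes rose and 22.2% fell in OCI-LY3, and 20.4% rose and 22.8% fell in SU-DHL6. Scaled by total counts, these shares were 17.8% and 26.6% in OCI-LY3, and 33.1% and 14.4% in SU-DHL6. Of 17 proton pump subunits tested, which acidify the lysosome, 10 rose in OCI-LY3 and the other 7 did not pass, or 8 rose and 1 fell with total counts. In SU-DHL6, 3 rose and 3 fell, or 10 rose and 2 fell with total counts. ATP6V0D1 averaged 98.3 ± 3.29 and 49.4 ± 6.87 CPM in treated and untreated OCI-LY3 (0.99 ± 0.13) and 97.7 ± 9.66 and 148 ± 20.7 CPM in treated and untreated SU-DHL6 (-0.60 ± 0.12). Among 14 genes for fusion of autophagosomes with lysosomes, 8 rose in OCI-LY3 and the other 6 did not pass, and 2 rose and 2 fell in SU-DHL6, or 4 rises with total counts; VPS41, a subunit of the HOPS tether, rose in both (0.87 ± 0.10 and 0.80 ± 0.10). Of 24 other membrane and transfer genes, 13 rose and 1 fell in OCI-LY3, and 6 rose and 4 fell in SU-DHL6, or 11 and 3 with total counts. CTNS, the cystine exporter, had 22.9 ± 2.87 and 5.2 ± 0.689 CPM in treated and untreated OCI-LY3 (2.14 ± 0.15) and 20.5 ± 0.732 and 26.7 ± 2.72 CPM in treated and untreated SU-DHL6 (-0.38 ± 0.13). That SU-DHL6 call was lost with total counts (-0.11, adjusted p = 0.505), after removal of GC and length trends (-0.17, adjusted p = 0.267), without the filter on low counts (0.0794), with the replicate number as a block (0.0763) and without untreated library 2 or 3 (0.127 and 0.0644) or any 1 treated library (0.0755, 0.0829 and 0.0521).

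Of 32 other lysosomal enzymes, 14 rose and 8 fell in OCI-LY3, and 11 rose and 8 fell in SU-DHL6, or 15 and 5 with total counts. TPP1, a tripeptidase, rose in both lines and more in OCI-LY3 (1.91 ± 0.11 and 0.68 ± 0.10, difference 1.23 ± 0.15, adjusted p = 2.66e-05), and GUSB, the beta-glucuronidase, fell in both (-0.65 ± 0.12 and -1.26 ± 0.11). Among 25 other core autophagy genes, 9 rose and 4 fell in OCI-LY3 and 13 rose and 3 fell in SU-DHL6. With total counts these were 7 and 5 in OCI-LY3 and 14 rises in SU-DHL6. RB1CC1, the scaffold of the ULK1 complex, had -0.28 ± 0.17 in OCI-LY3 (adjusted p = 0.202) and rose in SU-DHL6 by 1.18 ± 0.17 (adjusted p = 7.13e-05). The 14 receptors had 5 rises and 1 fall in OCI-LY3 and 4 rises and 2 falls in SU-DHL6, or 5 and 3, and 6 and 1, with total counts. OPTN, a receptor for mitochondria, rose in OCI-LY3 (1.03 ± 0.15) and had 0.16 ± 0.15 in SU-DHL6 (difference 0.86 ± 0.21, adjusted p = 0.00525). With total counts its SU-DHL6 value was 0.43 (adjusted p = 0.0341) and the difference 0.49 (adjusted p = 0.0897). Of 29 regulators of mTORC1 and TFEB, 8 rose and 8 fell in OCI-LY3, and 7 rose and 9 fell in SU-DHL6, or 6 and 10, and 13 and 5, with total counts. SESN2, a leucine sensor that restrains mTORC1, fell in both, to 23.4 ± 4.45 CPM in treated OCI-LY3 against 118 ± 3.02 CPM untreated, and to 47.1 ± 2.23 CPM in treated SU-DHL6 against 281 ± 36.1 CPM untreated.

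**Figure D5:**
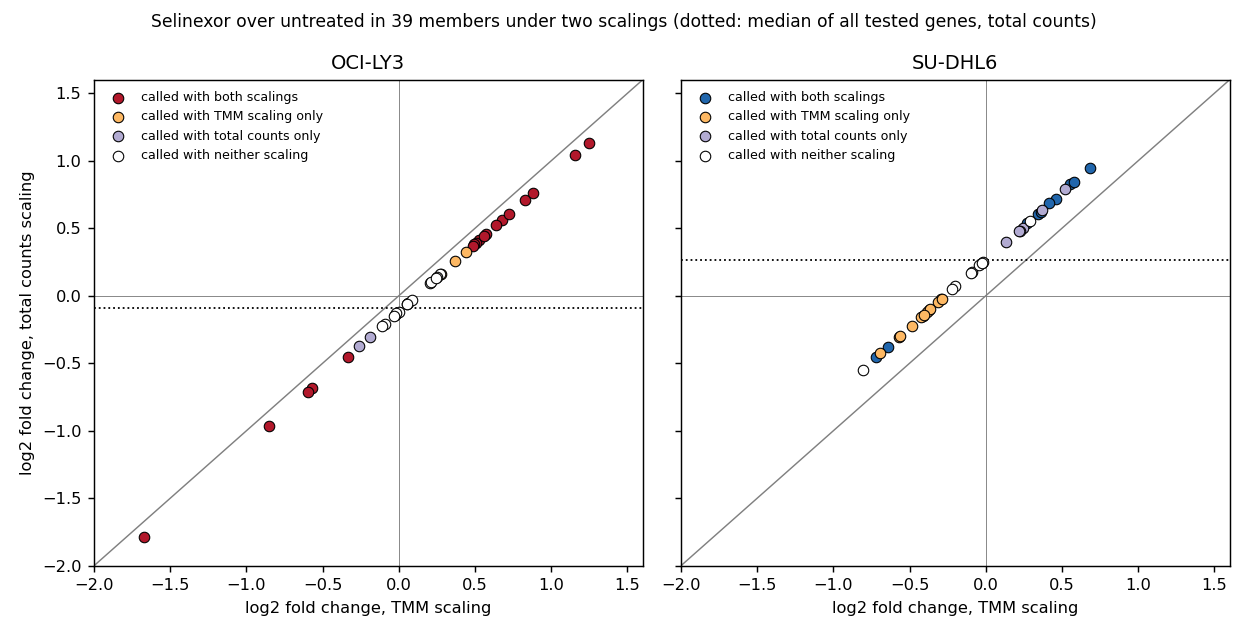
Log2 fold change of the 39 members with TMM scaling (x axis) and with scaling by total counts (y axis) in OCI-LY3 (left) and SU-DHL6 (right); colour shows under which scaling a member was called, the diagonal marks equal values and the dotted line the median of all genes with total counts (-0.09 and 0.27). In SU-DHL6 all points lie above the diagonal, and 13 falls were called with TMM scaling alone.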

How the data were processed

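RNA sequencing of 12 libraries in 4 groups of 3 was analysed. Per the file headers, each gene of the deposited table has 1 read count and 1 FPKM value for every library. The sources used here do not name the aligner, the counting program or the use of strand, so reads of overlapping genes cannot be told apart. GRCm38 and mm10, which are mouse builds, stand in the submitters' processing notes, but the identifiers are human, and 97.6% of those matched to GENCODE 29 have its GRCh38 coordinates, which are the ones printed. Deposited FPKM divides by lengths of 1.02 to 5.35 times the merged exons of a member, so levels between genes use CPM per kilobase of merged exons.

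The deposited counts were filtered (filterByExpr), scaled by TMM and fitted in edgeR 4.0.16 (R 4.3.3) with 1 coefficient per group over all 12 libraries. Contrasts used the robust quasi-likelihood F test with Benjamini-Hochberg adjustment over 16474 genes at 0.05; SE is the log2 fold change over the square root of F. The fit was tested on simulated data. Verbs of change are kept for values past the threshold.

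Alternatives were DESeq2 1.42.0, limma-voom 3.58.1, other scalings, filters and thresholds, each line alone, GC and length offsets, the replicate number as a block, each library left out, and, chosen after seeing the data, both libraries that stand apart left out. The members and gene lists were chosen with earlier results of these data known. All members are named; from other lists the text names some of those with the smallest adjusted p per direction and line, picked after their values were seen. A further B-cell marker is not reported here.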

Additional observations from a re-analysis of the deposited data

Results flagged for a closer look

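The response to selinexor differed between OCI-LY3 and SU-DHL6 by a direct test of the difference (edgeR, adjusted p under 0.05) in 13 of the 39 members tested. Over all genes 36.9% were called for the same difference, so calls were no more frequent among the members. The difference, OCI-LY3 minus SU-DHL6 in log2 units, was above 0 for 9 of them. It was 1.97 for GABARAP, 1.21 for CTSH, 1.07 for ATG13, 0.92 for HEXA and 0.90 for LAPTM5. It was 0.85 for CTSZ, 0.82 for WIPI2, 0.76 for LAMP1 and 0.50 for ATG7. It was below 0 for 4, at -0.98 for GAA, -0.58 for ATG3, -0.56 for CTSC and -0.55 for ATG12. Dose and time may differ between the lines and cannot be told apart from them.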

How the results depend on the processing

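No paired analysis was adopted, because same-numbered libraries did not deviate together (correlations 0.007, 0.005 and 0.013 in OCI-LY3 and -0.12, -0.022 and 0.05 in SU-DHL6). With the replicate number as a block, 14 members were higher and 5 lower in OCI-LY3 (20.1% and 19.9% of all genes), 5 higher and 11 lower in SU-DHL6 (18% and 20.6%). The difference of responses kept its call in all 21 alternatives without another threshold for GABARAP, ATG13, WIPI2, LAMP1, CTSH, CTSZ, HEXA and LAPTM5. Over 3705 pairs of a member result and an alternative, 3378 kept their side of the threshold, 259 lost the call and 67 gained it. In 1 pair, LAPTM5 in SU-DHL6 with total counts, the value changed sign and passed the test. Of the 3378, 95 changed sign in values called by neither setting, and the others kept direction. The cause of the changes below was not tested.

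Scaling by total counts gave 5451 genes higher and 2367 lower in SU-DHL6, with 15 members higher and 2 lower, and for the difference 1817 genes higher, 4891 lower and 11 members lower. It turned LAPTM5 in SU-DHL6 to 0.24 and ATP6V0A1 to 0.0035. The GC and length offsets turned FKBP8 between the untreated lines to -0.19. Summed levels of the machinery became 1326 and 1116 CPM in treated and untreated OCI-LY3 and 1276 CPM in treated SU-DHL6; those of the lysosomal genes became 4777, 3799 and 4130 CPM. Leaving out each library in turn gave 4 to 9 members higher and 8 to 15 lower in SU-DHL6 (15.9% to 20.7% and 18.1% to 23.1% of all genes), the lowest counts being 4 higher without treated library 1, 8 lower without untreated library 3 and 9 lower without treated library 2.

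An adjusted p under 0.01 left 2155 genes higher, 4 members higher and 8 lower in SU-DHL6, and for the difference 1727 genes and 2 members lower. A minimum log2 change of 1 in either direction left 1417 genes higher and 1541 lower in OCI-LY3 with 2 members higher and 1 lower, and 1184 and 1449 genes in SU-DHL6 with 0 members higher and 0 lower, since no member passed 1 in edgeR's estimates there (-0.81 to 0.68). For the difference it left 1752 genes higher and 1561 lower, with 3 members higher and 0 lower (lowest -0.98), and between untreated lines 3623 genes higher and 3264 lower, with 3 members lower.

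Genes such as GABARAPL1 in SU-DHL6 (9 to 26 counts a library) allow little precision.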
